A study of Mus musculus with 42 samples.

Results

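The genes described here carry pyruvate into mitochondria, turn it into acetyl-CoA, run the tricarboxylic acid (TCA) cycle and move malate, aspartate and other dicarboxylates across the inner mitochondrial membrane. They were listed by symbol, not by their values, and all 38 were found among the 25700 genes measured. RNA was sequenced from 1 retina of each of 42 C57BL/6J mice, with 6 mice in each of 7 groups. The hypoxic groups are named by oxygen, duration and place. Mice of 07-06h-ZH breathed 7% oxygen for 6 h, and those of 14-06h-ZH, 14-48h-ZH and 14-11w-ZH breathed 14% oxygen (for 6 h, for 48 h and for 11 weeks, in this order), all at the normal air pressure of Zurich (ZH, normobaric hypoxia). Mice of 14-48h-JFJ and 14-07w-JFJ spent 48 h or 7 weeks at the Jungfraujoch station (JFJ, 3450 m), where the low air pressure gave an oxygen supply near that of 14% (hypobaric hypoxia). The Normoxia mice were kept at 21% oxygen for 11 weeks. Retinas of the JFJ mice were dissected at the station, without a microscope, and all others in Zurich. The JFJ mice had also been transported to the station and lived there on a different light/dark cycle from the Zurich mice. Pressure, place and manner of dissection, transport and light cycle therefore cannot be told apart. At the start the mice were 9 to 11 weeks old (10 weeks in 07-06h-ZH, 9 to 11 in 14-06h-ZH and 14-48h-ZH, 9 in both JFJ groups, 9.5 in 14-11w-ZH and Normoxia). Normoxia and 14-11w-ZH mice were sampled 11 weeks later and 14-07w-JFJ mice 7 weeks later. So the 6 h and 48 h groups were younger at sampling than Normoxia, and age and exposure cannot be told apart there.

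Levels are given as FPKM, fragments scaled by transcript length and by the mapped fragments of the library, so they can be compared between genes. A difference is a log2 fold change of FPKM + 0.1 with its standard error (SE), and it passed the test at an adjusted p of at most 0.05 by limma with Benjamini-Hochberg adjustment over all genes tested. Reads per gene could be recovered for 36 libraries and totalled 13986520 to 33595709 (median 18437268). The sample labels carry 5 code series: 14-06h-ZH and 14-48h-ZH share a series, 14-11w-ZH and Normoxia share another, and each remaining group has its own. Y-linked transcripts were present in 3 of 6 mice in 07-06h-ZH, 14-06h-ZH, 14-48h-ZH and both JFJ groups, and in 6 of 6 in 14-11w-ZH and Normoxia. All markers of rods, cones, bipolar, amacrine, horizontal, ganglion and Müller cells had a mean of at least 1 FPKM in each group. Summed marker levels moved with the groups. Rod markers summed to 46839 to 50926 FPKM in 14-48h-ZH and 33598 to 39814 FPKM in 14-48h-JFJ, against 39004 to 43646 FPKM in Normoxia, so both 48 h groups were apart from each other. Red blood cell markers had a median sum of 510 FPKM in 07-06h-ZH, against 59.5 FPKM in Normoxia, and lens markers one of 5495 FPKM in 14-06h-ZH (19.3 to 17689), against 89.4 FPKM in Normoxia (2.48 to 4286). The part of rods, blood and lens in the differences described here was not tested. The summed FPKM of 6 markers of pigment cells, which lie next to the retina, had a median of 490 in 14-07w-JFJ, 258 in 14-48h-JFJ, 172 in 07-06h-ZH and 32.3 to 64.8 in the remaining 4 groups. Oxygen and series, sex or age change together in most comparisons and cannot be told apart there, and fewer cells of a type cannot be told apart from less RNA per cell. Nothing in the labels says whether the mice of a group were housed or processed together.

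Pyruvate from glycolysis enters mitochondria through a carrier made of MPC1 and MPC2. The pyruvate dehydrogenase (PDH) complex then makes acetyl-CoA from it, and the complex is switched off by PDH kinases (PDK) and on by PDH phosphatases (PDP). Pyruvate that is kept out of the cycle can be reduced to lactate, which photoreceptors are known to make in large amounts even with oxygen present. Pdk1 is a known target of hypoxia-inducible factors (HIF).

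In the normoxic retina the median level of these genes ran from 0.439 FPKM for Pdk4 to 462 FPKM for Mdh1. The malate-aspartate shuttle, which carries reducing equivalents of cytosolic NADH into mitochondria, summed to 955 ± 35.5 FPKM and the enzymes of the TCA cycle to 919 ± 15.6 FPKM (SD, n = 6). The PDH complex summed to 395 ± 13.5 FPKM, its kinases to 125 ± 10.9 FPKM and its phosphatases to 21.8 ± 1.12 FPKM. Most genes varied little between the normoxic mice, with a coefficient of variation of 2.02% for Idh3a, but it was 43.9% for Suclg2 and 35.9% for Pdk4.

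All 38 genes entered the test in every comparison. After 6 h at 7% oxygen (07-06h-ZH over Normoxia) 6 were higher and 11 lower, and this is a share close to that of all genes, of which 42.0% passed the test (18.0% higher, 24% lower). At 14% oxygen 7 were higher and 11 lower after 6 h (34.3% of all genes passed: 9.54% higher, 24.8% lower), and 7 were higher and 12 lower after 48 h (36.2% of all genes: 9.48% higher, 26.7% lower). After 11 weeks 4 were higher and none lower (3.96% of all genes passed: 2.02% higher, 1.94% lower). In 14-48h-JFJ 3 were higher and 1 lower than in Normoxia (5.33% of all genes: 2.67% higher, 2.65% lower), and in 14-07w-JFJ 3 were higher and none lower (2.04% of all genes: 1.47% higher, 0.577% lower). For the empty directions, limma gave 2 genes with an unadjusted p under 0.05 lower in 14-11w-ZH and 1 lower in 14-07w-JFJ, and edgeR and DESeq2 gave 0 in both. Most changes were small. Of the 38 genes, 24, 24 and 26 stayed within 0.2 on the log2 scale in 07-06h-ZH, 14-06h-ZH and 14-48h-ZH over Normoxia, and Pdk1 and Me2 in 07-06h-ZH were the only changes past the test of at least 2-fold in any of the 10 comparisons. Of all genes, the share that passed at 2-fold over Normoxia was 4.20% for 07-06h-ZH, 0.976% for 14-06h-ZH and 0.822% for 14-48h-ZH, and it was 0.0351% in the comparison of 14-11w-ZH, 0.246% with 14-48h-JFJ and 0.277% with 14-07w-JFJ.

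The balance of higher and lower genes depended on the scaling of the libraries. With median-of-ratios scaling the counts were 8 higher and 7 lower in 07-06h-ZH, 11 and 8 in 14-06h-ZH, and 15 and 6 in 14-48h-ZH. All genes shifted likewise, with 3639 higher and 3424 lower in 07-06h-ZH (41.6% passed), 2654 and 2996 in 14-06h-ZH (33.0%), and 2900 and 2898 in 14-48h-ZH (34.0%). With a correction for GC content they were 9 and 8, 9 and 8, and 12 and 8 of the 38 genes in these groups, where 44.3%, 32.4% and 33.8% of all genes passed. No gene past the test changed sign under the alternatives run for it.

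**Figure D1:**
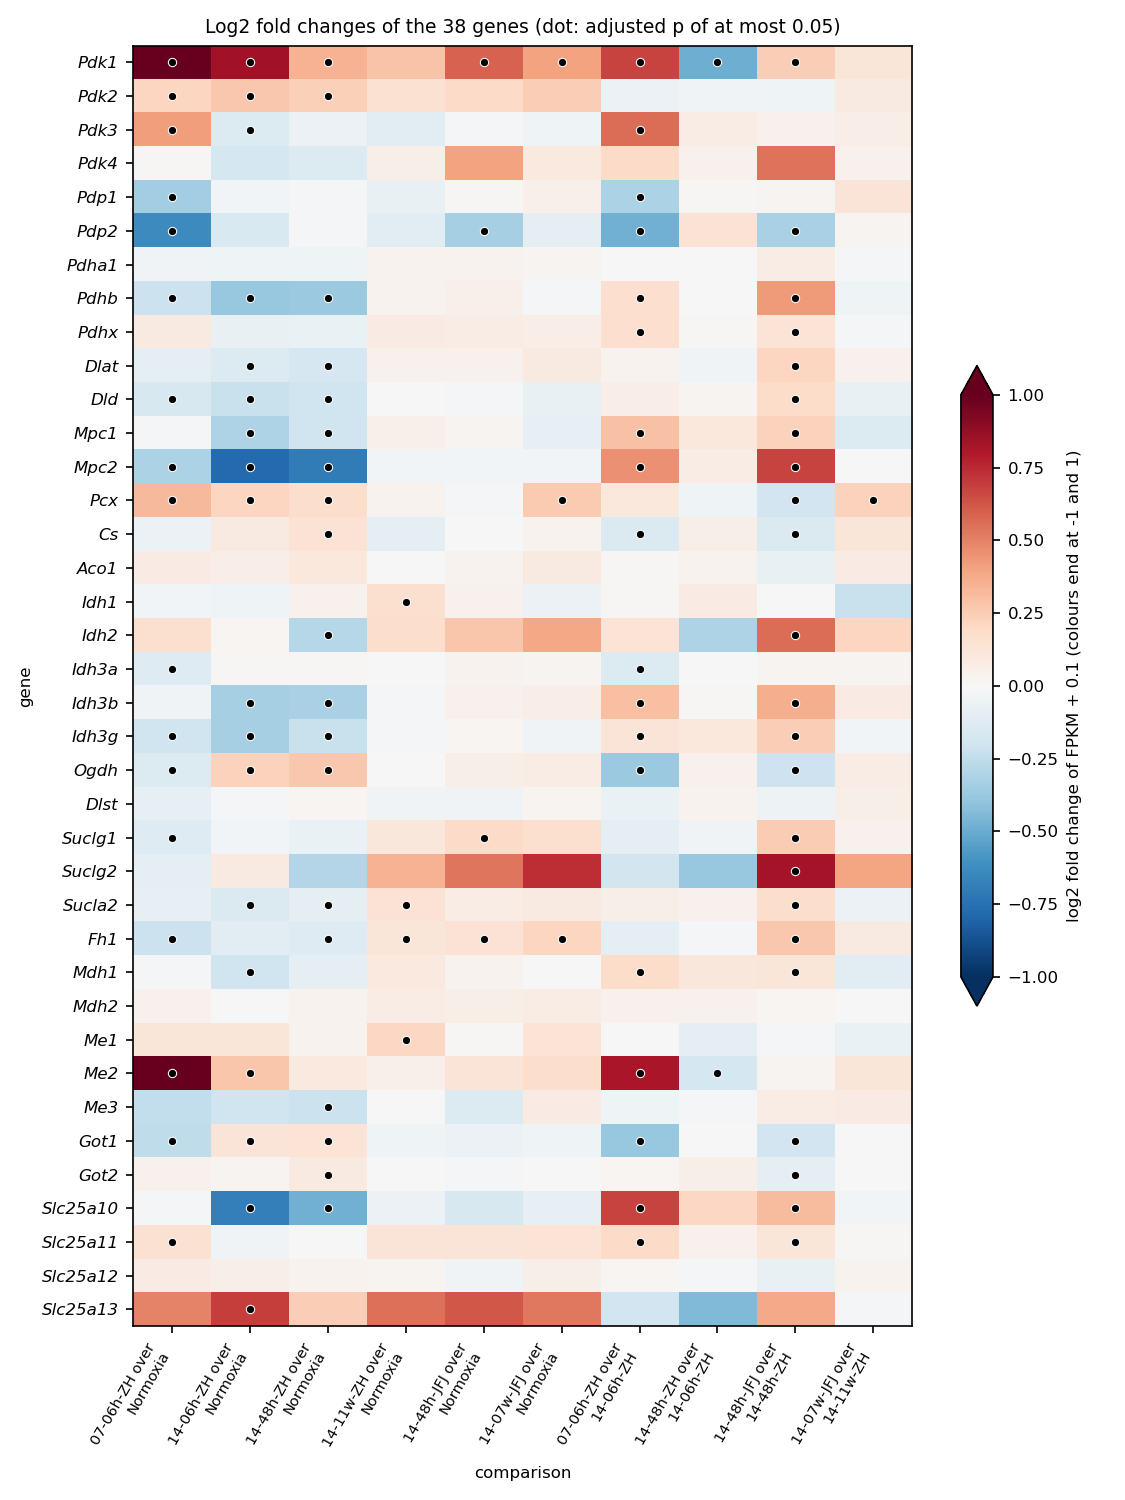
Log2 fold changes of FPKM + 0.1 for the 38 genes (rows, ordered by role) in the 10 comparisons (columns, named as group over reference), with red for higher and blue for lower, and dots for an adjusted p of at most 0.05. Pdk1 (1.51) and Me2 (1.09) in 07-06h-ZH exceed the colour scale, Mpc2 is dark blue in 14-06h-ZH and 14-48h-ZH, and the columns of 14-11w-ZH over Normoxia and 14-07w-JFJ over 14-11w-ZH hold 4 dots and 1 dot.

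Among the 38 genes Pdk1, a kinase that switches PDH off, had the largest change past the test. It was 2.85-fold higher after 6 h at 7% oxygen and 1.79-fold higher after 6 h at 14%. Pdk3 was higher at 7% oxygen and not at 14%. Of the 4 kinase genes 3 were higher in 07-06h-ZH (Pdk1, Pdk2 and Pdk3), Pdk4 did not pass, and both phosphatase genes were lower in the same mice.

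Pdk1 had 81.7, 91.9 and 102 FPKM (lowest, median and highest of 6 mice) in 07-06h-ZH and 53.3, 57.3 and 61.7 FPKM in 14-06h-ZH, against 26.3, 31.1 and 39.8 FPKM in Normoxia. Neither hypoxic group overlapped Normoxia. The log2 difference from Normoxia was 1.51 (SE 0.08, adjusted p = 1.56e-09) in 07-06h-ZH and 0.84 (SE 0.08, adjusted p = 1.46e-06) in 14-06h-ZH by limma. Pdk1 was also higher in 07-06h-ZH than in 14-06h-ZH by 0.67 (SE 0.06, adjusted p = 1.23e-07), again without overlap. These groups belong to different code series, so oxygen and series cannot be told apart.

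With longer exposure at 14% oxygen the level of Pdk1 was lower. It was 37.0, 41.4 and 43.7 FPKM in 14-48h-ZH, where every mouse was below every mouse of 14-06h-ZH, and limma gave a difference of -0.49 (SE 0.04, adjusted p = 4.44e-05) within a code series. It was still higher than in Normoxia by 0.35 (SE 0.08, adjusted p = 0.00276), though the ranges overlapped. In 14-11w-ZH Pdk1 had 35.5, 39.0 and 43.6 FPKM. This is 0.28 above Normoxia (SE 0.08, adjusted p = 0.0592) and did not pass the test.

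In hypobaric hypoxia Pdk1 had 41.7, 49.4 and 51.7 FPKM in 14-48h-JFJ, above all Normoxia mice (0.59, SE 0.08, adjusted p = 0.00112). Against 14-48h-ZH it was higher by 0.24 (SE 0.05, adjusted p = 0.00129) with overlapping ranges, but this call was lost with median-of-ratios scaling, edgeR and DESeq2. In 14-07w-JFJ it had 34.1, 43.6 and 48.9 FPKM and was 0.41 above Normoxia (SE 0.10, adjusted p = 0.044). That call was lost in 10 of 14 other settings and when any of 10 single mice was left out. By falling median the order for Pdk1 was 07-06h-ZH, 14-06h-ZH, 14-48h-JFJ, 14-07w-JFJ, 14-48h-ZH, 14-11w-ZH and Normoxia. The first 2 groups did not overlap their next neighbour in this order, and each later group did.

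Pdk1 lies on mouse chromosome 2 (GRCm38, 71873224 to 71903858, plus strand). The 250 bases before its start (RefSeq, GRCm38.p6, chr2:71872974-71873223, plus strand) and those before the start of Pdk3 (chrX:93832151-93832400, minus strand) are shown because both genes were higher in 07-06h-ZH. Capitals mark ACGTG or GCGTG on either strand, the core letters of the HIF response element.
Pdk1: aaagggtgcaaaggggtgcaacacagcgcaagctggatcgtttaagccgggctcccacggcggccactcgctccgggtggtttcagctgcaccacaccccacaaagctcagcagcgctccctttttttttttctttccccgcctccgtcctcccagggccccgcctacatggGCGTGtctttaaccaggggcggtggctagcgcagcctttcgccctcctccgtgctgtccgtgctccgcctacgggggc
Pdk3: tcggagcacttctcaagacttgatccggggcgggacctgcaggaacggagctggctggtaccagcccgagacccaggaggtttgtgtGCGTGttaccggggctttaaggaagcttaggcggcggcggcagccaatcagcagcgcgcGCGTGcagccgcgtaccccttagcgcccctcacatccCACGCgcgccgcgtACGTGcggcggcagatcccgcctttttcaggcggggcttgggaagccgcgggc
Pdk1 holds 1 such match, which starts 78 bases before the gene start, and a window at its second RefSeq start holds none. Pdk3 holds 4 matches, at 163, 104, 67 and 53 bases before its start. Over the listed genes, 35 had at least 1 window of 250 bases and 24 of these (68.6%) held a match, against 41.5% of the 27025 genes with a window. Those 27025 genes were matched to the listed genes neither in level nor in GC content. A match was not particular to genes that were higher, since Pdp2, Pdhb and Idh3g, all lower in 07-06h-ZH, held 2 each. A palindromic CACGTG counts as a pair of overlapping matches, and a match is a description of the letters and not a bound site.

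Pdk2, the most abundant kinase transcript in normoxia, changed less. It had 68.3, 75.8 and 92.2 FPKM in 07-06h-ZH, 72.5, 81.1 and 83.7 FPKM in 14-06h-ZH and 75.3, 76.7 and 84.0 FPKM in 14-48h-ZH, against 53.2, 66.6 and 77.5 FPKM in Normoxia. All 3 ranges overlapped Normoxia, and limma gave 0.21 (SE 0.08, adjusted p = 0.0394), 0.27 (SE 0.07, adjusted p = 0.00635) and 0.24 (SE 0.07, adjusted p = 0.0119). The call in 07-06h-ZH was lost in 5 of 14 settings and on leaving out any of 9 single mice, and that in 14-06h-ZH was lost with the Y-linked term (adjusted p = 0.0612). The values in 14-48h-JFJ (0.19, adjusted p = 0.0966) and 14-07w-JFJ (0.25, adjusted p = 0.0987) were of similar size and did not pass.

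Pdk3 was higher at 7% oxygen alone. It had 32.0, 35.8 and 37.2 FPKM in 07-06h-ZH, above every mouse of the other groups, against 22.5, 23.7 and 25.1 FPKM in 14-06h-ZH and 24.3, 26.2 and 27.2 FPKM in Normoxia. It was higher in 07-06h-ZH by 0.42 over Normoxia (SE 0.05, adjusted p = 6.58e-06) and by 0.56 over 14-06h-ZH (SE 0.05, adjusted p = 2.93e-07). In 14-06h-ZH it was slightly lower than in Normoxia (-0.14, adjusted p = 0.0174), a call that was lost with median-of-ratios scaling, normalized counts, GC correction, edgeR and DESeq2. Pdk3 is X-linked, and the groups differ in the number of males.

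Pdk4, known elsewhere as the kinase of fasting and fatty acid use, was near the limit of detection. Its medians lay between 0.405 and 0.571 FPKM in all 7 groups, and it passed the test in no comparison. Its highest single value, 1.02 FPKM, was in the 14-48h-JFJ mouse with the highest pigment marker sum of its group (568).

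The kinase mix therefore differed between groups. Pdk1 made up 44.9 ± 1.8% of the summed kinase FPKM in 07-06h-ZH and 35.5 ± 2.0% in 14-06h-ZH, between 28.3 ± 1.6% (14-48h-ZH) and 32.1 ± 1.3% (14-48h-JFJ) in the other hypoxic groups, against 25.7 ± 2.6% in Normoxia (SD, n = 6). Pdk1 was the most abundant kinase transcript in 07-06h-ZH only, where Pdk2 made up 37.8 ± 2.6%, against 53.1 ± 3.0% in Normoxia. The summed kinase FPKM was 204 ± 14.3 in 07-06h-ZH and 161 ± 2.9 in 14-06h-ZH, against 125 ± 10.9 in Normoxia.

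**Figure D2:**
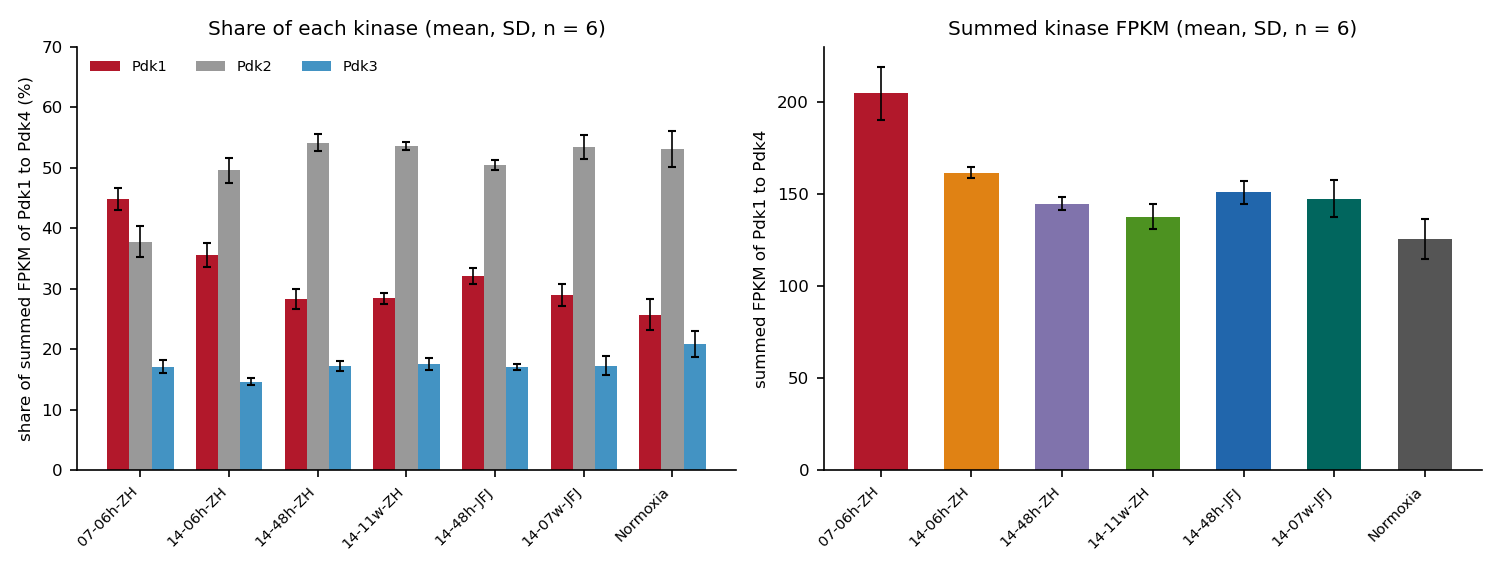
Left, share of Pdk1, Pdk2 and Pdk3 in the summed FPKM of Pdk1 to Pdk4 (percent, mean and SD of 6 mice), by group. Right, the summed FPKM of the kinases. Pdk1 exceeds Pdk2 in 07-06h-ZH (44.9% and 37.8%), and the summed FPKM is 204 there, against 125 in Normoxia.

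The phosphatases moved in the opposite direction at 7% oxygen. Pdp2 had 3.96, 4.13 and 4.55 FPKM in 07-06h-ZH, against 6.24, 6.59 and 7.21 FPKM in Normoxia (-0.63, SE 0.08, adjusted p = 5.5e-06), without overlap. Pdp1, the more abundant of the pair, had 11.2, 11.8 and 13.4 FPKM in 07-06h-ZH, against 14.1, 15.3 and 16.5 FPKM in Normoxia (-0.34, SE 0.06, adjusted p = 0.00031), also without overlap. Both were lower in 07-06h-ZH than in 14-06h-ZH as well, Pdp2 by -0.48 (adjusted p = 0.000117) and Pdp1 by -0.32 (adjusted p = 0.000431).

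At 14% oxygen neither phosphatase passed the test in Zurich. Pdp2 had 5.27, 5.96 and 6.64 FPKM in 14-06h-ZH (-0.15 from Normoxia, adjusted p = 0.101) and 5.89, 6.58 and 6.91 FPKM in 14-48h-ZH. It was lower in 14-48h-JFJ, with 4.42, 5.43 and 5.64 FPKM, than in 14-48h-ZH (-0.32, SE 0.07, adjusted p = 0.00193) and in Normoxia (-0.33, SE 0.08, adjusted p = 0.0192), with no overlap in either. The second of these calls was lost with the Y-linked term and with replicate numbers as a block.

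**Figure D3:**
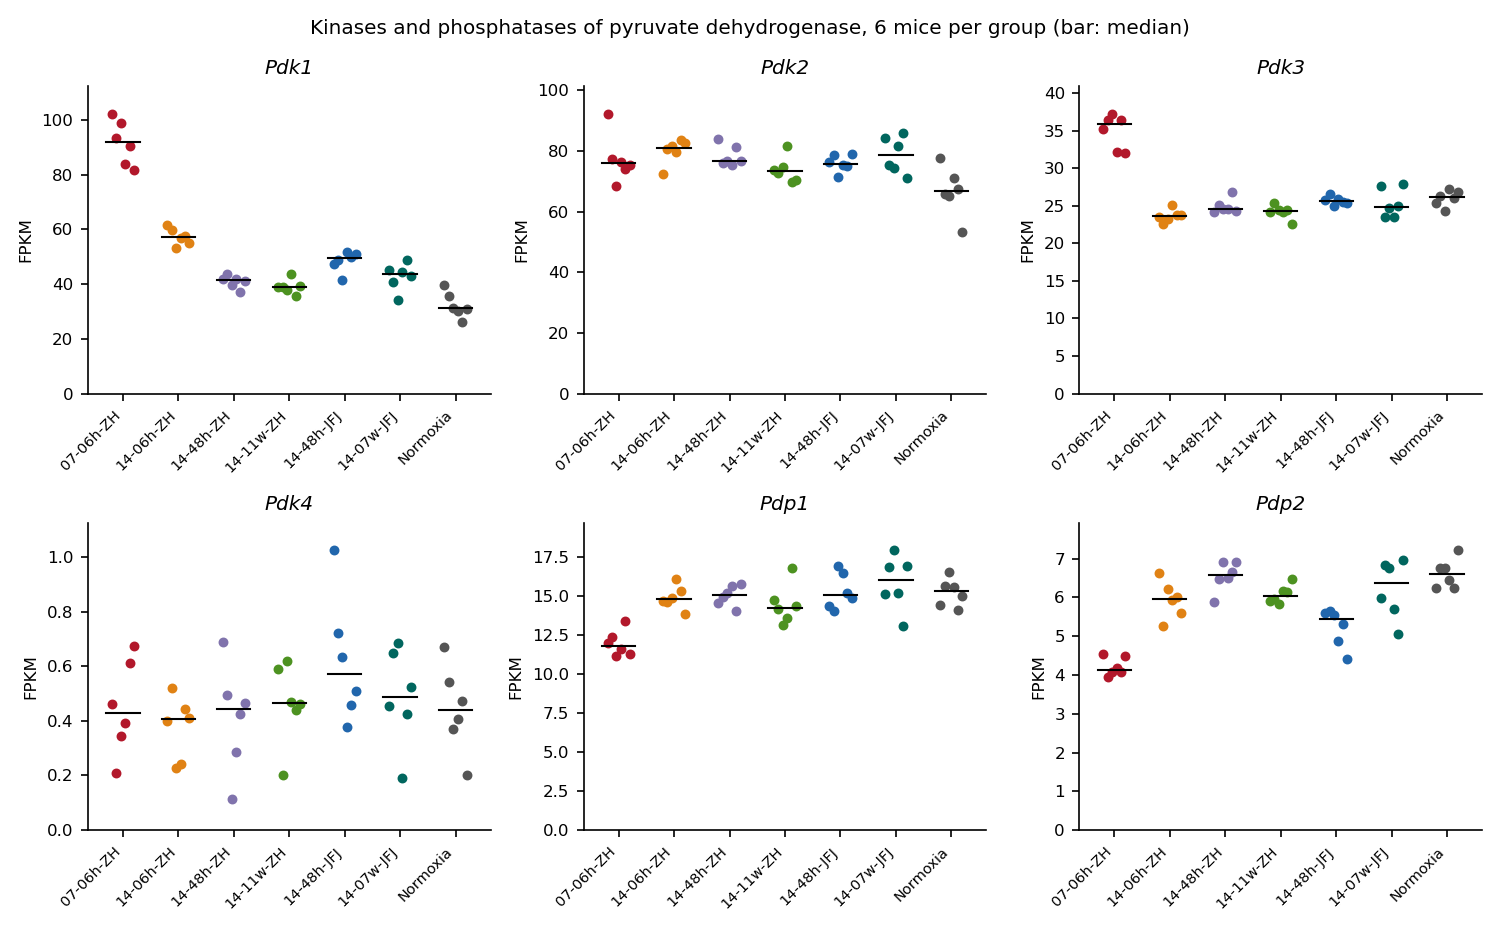
FPKM of the PDH kinases Pdk1 to Pdk4 and the phosphatases Pdp1 and Pdp2 in each mouse (points, 6 per group) with the group median (bar), by group. The 07-06h-ZH mice lie above all other mice for Pdk1 and Pdk3 and below all Normoxia mice for Pdp1 and Pdp2 (Pdp2 at most 4.55 FPKM in 07-06h-ZH, against at least 6.24 in Normoxia).

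The pyruvate carrier showed a different order of the groups. Mpc2 was lowest at 14% oxygen in Zurich, with 15.2, 16.2 and 17.4 FPKM in 14-06h-ZH and 16.5, 16.8 and 18.7 FPKM in 14-48h-ZH, against 26.81, 26.985 and 30.02 FPKM in Normoxia. It fell by 0.78 on the log2 scale in 14-06h-ZH (SE 0.05, adjusted p = 2.15e-08) and by 0.70 in 14-48h-ZH (SE 0.04, adjusted p = 2.4e-08), and it did so in every mouse. In 07-06h-ZH it had 20.2, 22.3 and 25.3 FPKM, between these groups and Normoxia (-0.32, SE 0.06, adjusted p = 0.000289). So the milder hypoxia of 6 h went with the lower level, and 07-06h-ZH was above 14-06h-ZH by 0.46 (SE 0.06, adjusted p = 8.66e-06).

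Mpc2 in the remaining groups was close to Normoxia. It had 24.4, 27.7 and 29.9 FPKM in 14-11w-ZH, next 25.1, 27.4 and 29.3 FPKM in 14-48h-JFJ and then 26.8, 26.9 and 28.6 FPKM in 14-07w-JFJ. The log2 difference between 14-48h-JFJ and 14-48h-ZH was 0.67 (SE 0.05, adjusted p = 3.26e-08), whereas that between 14-48h-ZH and 14-06h-ZH was 0.07 (SE 0.05, adjusted p = 0.48). 14-06h-ZH and 14-48h-ZH are the groups of 1 code series that no other group shares, so 14% oxygen for up to 48 h in Zurich and that series cannot be told apart.

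Mpc1 was also lower in 14-06h-ZH and 14-48h-ZH, by less than Mpc2. It had 27.1, 28.7 and 30.6 FPKM in 14-06h-ZH, against 32.3, 35.5 and 40.5 FPKM in Normoxia (-0.31, SE 0.05, adjusted p = 0.000299). In 14-48h-ZH it had 28.7, 31.8 and 32.3 FPKM (-0.20, SE 0.05, adjusted p = 0.00517), a call lost with median-of-ratios scaling, normalized counts, edgeR and DESeq2. In 07-06h-ZH it had 32.8, 35.5 and 37.1 FPKM and did not pass (-0.02, adjusted p = 0.832).

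Among the subunits of the PDH complex, Pdhb, the beta subunit of the E1 component, changed most. It had 77.7, 88.5 and 96.8 FPKM in 14-06h-ZH and 81.8, 88.0 and 91.8 FPKM in 14-48h-ZH, against 107, 114 and 121 FPKM in Normoxia, with no overlap (-0.38 and -0.37, SE 0.05 and 0.04, adjusted p = 3.26e-05 and 1.64e-06). In 07-06h-ZH it had 90.4, 97.3 and 107 FPKM (-0.21, SE 0.05, adjusted p = 0.00128). Its partner Pdha1, the alpha subunit of E1, passed the test in no comparison. Dld, the E3 component that PDH shares with the oxoglutarate dehydrogenase complex, was lower in all 3 of these groups (-0.16, -0.22 and -0.20), the first of which was lost with both scalings. Dlat, the E2 component, was lower in 14-06h-ZH and 14-48h-ZH (-0.13 and -0.17), and both calls were lost with median-of-ratios scaling.

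Of the TCA cycle itself, 11 genes were measured here, and 5 were lower in 07-06h-ZH while the other 6 did not pass, 1 was higher and 3 lower in 14-06h-ZH, and 2 were higher and 4 lower in 14-48h-ZH than in Normoxia. Of all genes 24% were lower in 07-06h-ZH, 9.54% higher and 24.8% lower in 14-06h-ZH, and 9.48% higher and 26.7% lower in 14-48h-ZH, so 3 of 11 lower is near the share of all genes. Of the 5 lower in 07-06h-ZH, Idh3a, Ogdh and Suclg1 were lost with median-of-ratios scaling, edgeR and DESeq2, while Fh1 and Idh3g were kept. NAD-dependent isocitrate dehydrogenase has a catalytic alpha and 2 further subunits, of which Idh3b had 103, 112 and 115 FPKM in 14-06h-ZH, against 133, 139 and 145 FPKM in Normoxia (-0.34, SE 0.03, adjusted p = 2.21e-06). It was as low in 14-48h-ZH (-0.32, adjusted p = 8.42e-07) and not in 07-06h-ZH (-0.03, adjusted p = 0.494). Idh3g was lower in all 3 groups, by -0.20, -0.33 and -0.23 (adjusted p = 0.000571, 1.04e-05 and 9.42e-05). The catalytic Idh3a was lower in 07-06h-ZH (-0.13) and did not pass in 14-06h-ZH or 14-48h-ZH, and the call in 07-06h-ZH was lost in 7 of 14 settings.

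Ogdh, the E1 component of the oxoglutarate dehydrogenase complex, was higher in 14-06h-ZH and 14-48h-ZH and lower in 07-06h-ZH than in Normoxia. It had 99.8, 103 and 107 FPKM in 14-06h-ZH and 103, 106 and 109 FPKM in 14-48h-ZH, both above all Normoxia mice (83.3, 88.2 and 92.6 FPKM), with log2 differences of 0.23 (SE 0.03, adjusted p = 8.61e-05) and 0.27 (SE 0.03, adjusted p = 4.85e-06). In 07-06h-ZH it had 74.1, 80.1 and 84.0 FPKM (-0.14, adjusted p = 0.00993, lost with median-of-ratios scaling), and the difference between 07-06h-ZH and 14-06h-ZH was -0.37 (SE 0.04, adjusted p = 1.22e-06). Cs, citrate synthase at the entry to the cycle, was 0.15 higher in 14-48h-ZH (adjusted p = 0.00142). Fh1, the fumarase, was lower in 07-06h-ZH (-0.21, adjusted p = 0.001). Dlst and Mdh2 passed the test in no comparison.

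Pyruvate can also be carboxylated to oxaloacetate by pyruvate carboxylase or arise from malate by malic enzymes. Me2, the NAD-dependent malic enzyme of mitochondria, had 36.1, 38.7 and 39.5 FPKM in 07-06h-ZH, against 16.5, 17.9 and 19.2 FPKM in Normoxia (2.13-fold, log2 1.09, SE 0.05, adjusted p = 6.74e-11). In 14-06h-ZH it had 20.6, 21.8 and 22.6 FPKM, which is higher than Normoxia by 0.27 (SE 0.05, adjusted p = 0.000261), and neither group overlapped it. In 14-48h-ZH it was near Normoxia with 17.8, 19.3 and 19.9 FPKM (0.10, adjusted p = 0.103). The difference of -0.18 from 14-06h-ZH passed (adjusted p = 0.039) but was lost in 7 of 14 settings and on leaving out any of 9 single mice. The cytosolic Me1 was higher in 14-11w-ZH (0.21, adjusted p = 0.0221), and Me3 was lower in 14-48h-ZH (-0.22), which was lost in 7 of 14 settings.

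Pcx, pyruvate carboxylase, was higher in 07-06h-ZH, with 13.6, 16.2 and 17.6 FPKM, against 11.6, 12.3 and 14.1 FPKM in Normoxia (0.32, SE 0.07, adjusted p = 0.00175). The ranges overlapped, as they did in 14-06h-ZH (0.22, adjusted p = 0.0177) and 14-48h-ZH (0.18, adjusted p = 0.0195, lost on leaving out 1 mouse). In 14-07w-JFJ it had 14.0, 15.0 and 16.6 FPKM, above Normoxia by 0.26 (adjusted p = 0.0398, lost on leaving out any of 10 single mice) and above all mice of 14-11w-ZH (12.7, 12.8 and 13.2 FPKM). The second difference, 0.23 (SE 0.05, adjusted p = 0.0381), was the only one of the 38 genes to pass between the chronic groups, and it was lost in 5 of 14 settings and on leaving out any of 9 single mice.

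Slc25a10, the mitochondrial dicarboxylate carrier, was lower at 14% oxygen in Zurich after 6 h and 48 h. It had 13.5, 15.0 and 16.3 FPKM in 14-06h-ZH and 15.97, 17.1 and 18.2 FPKM in 14-48h-ZH, against 22.0, 23.6 and 27.8 FPKM in Normoxia, without overlap. It fell by 0.68 in 14-06h-ZH (SE 0.07, adjusted p = 1.39e-06) and by 0.48 in 14-48h-ZH (SE 0.05, adjusted p = 5.41e-06) on the log2 scale. In 07-06h-ZH it had 19.4, 23.6 and 32.5 FPKM and did not pass the test against Normoxia (-0.01, SE 0.10, adjusted p = 0.947), so that 07-06h-ZH was 0.67 above 14-06h-ZH (SE 0.10, adjusted p = 3.32e-05). A correction for GC content lowered the size of the change in 14-48h-ZH to -0.26.

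**Figure D4:**
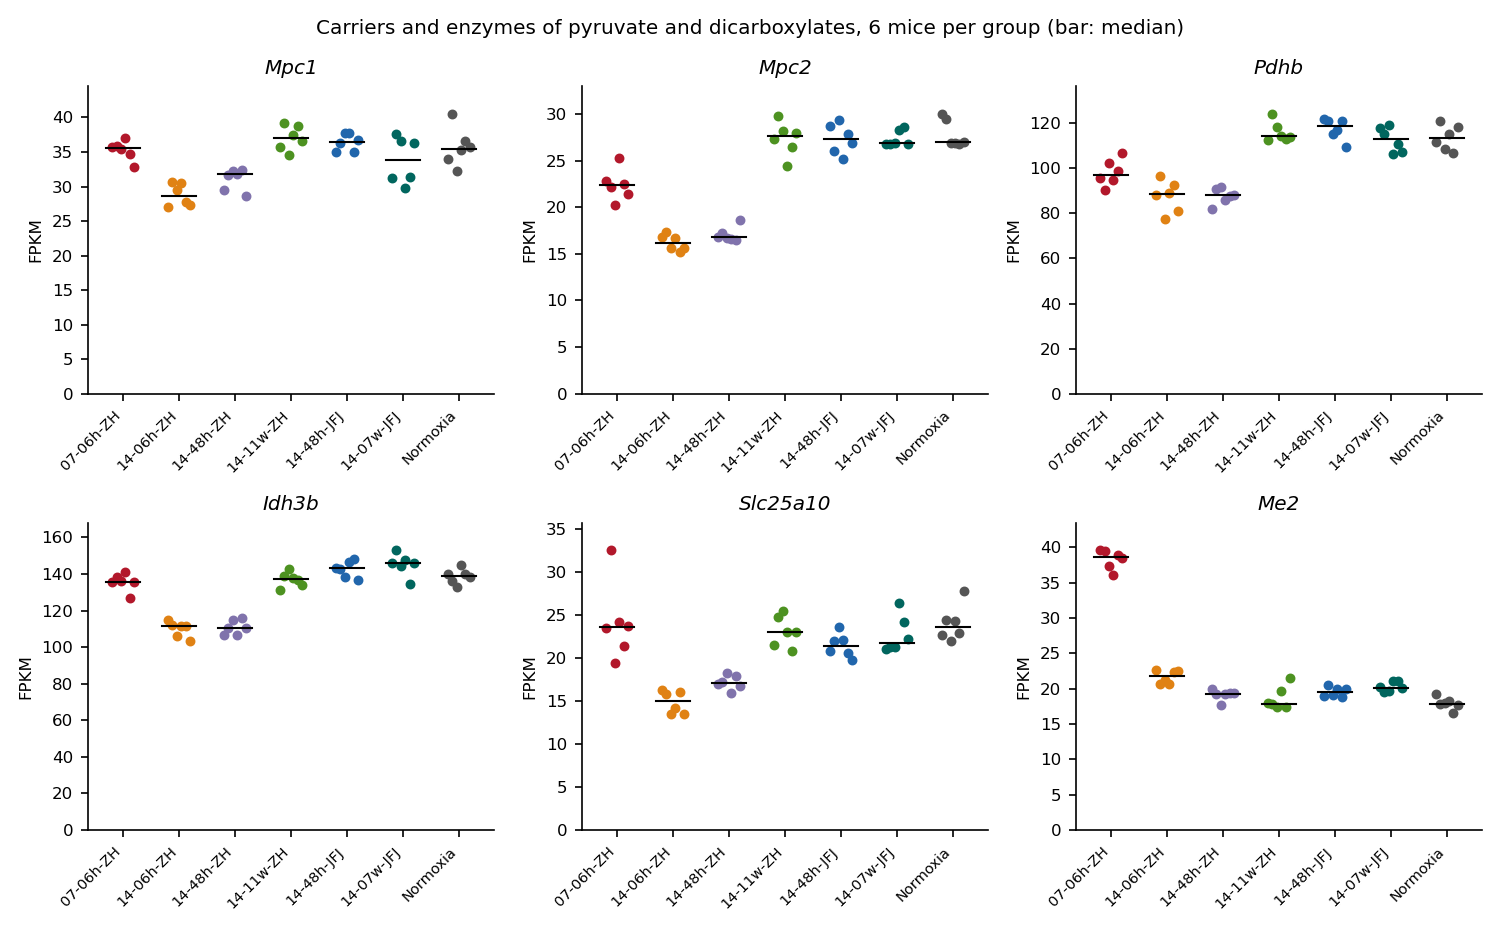
FPKM of Mpc1, Mpc2, Pdhb, Idh3b, Slc25a10 and Me2 in each mouse (points, 6 per group) with the group median (bar), by group. The points of 14-06h-ZH and 14-48h-ZH lie below all Normoxia points for Mpc2 (at most 18.7 FPKM, against at least 26.8), Pdhb, Idh3b and Slc25a10, and Me2 stands apart in 07-06h-ZH (at least 36.1 FPKM).

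The malate-aspartate shuttle changed in single genes. Got1, its cytosolic aminotransferase, had 169, 183 and 202 FPKM in 07-06h-ZH, below all Normoxia mice (212, 218 and 241 FPKM, -0.25, SE 0.05, adjusted p = 0.000281). In 14-06h-ZH it had 217, 243 and 263 FPKM and was higher than Normoxia (0.13, adjusted p = 0.0294, lost in 2 of 14 settings and on leaving out any of 6 single mice), which left 07-06h-ZH below 14-06h-ZH by -0.38 (SE 0.05, adjusted p = 1.23e-05). Mdh1, the cytosolic malate dehydrogenase and most abundant of the 38 genes, was lower in 14-06h-ZH, with 386, 406 and 412 FPKM, against 424, 462 and 484 FPKM in Normoxia (-0.20, SE 0.04, adjusted p = 0.000352). Slc25a11, the oxoglutarate carrier, was 0.15 higher in 07-06h-ZH than in Normoxia.

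The shuttle's aspartate-glutamate carrier is encoded by Slc25a12 and Slc25a13. Slc25a12 passed the test in no comparison. Slc25a13 was a low transcript with 0.906, 1.201 and 1.54 FPKM in 14-06h-ZH, against 0.411, 0.782 and 0.884 FPKM in Normoxia (0.69, SE 0.19, adjusted p = 0.0109). Its medians in the other hypoxic groups were 0.902 to 1.17 FPKM, and none of them passed.

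The chronic groups showed few changes. In 14-11w-ZH, which shares its code series, age and sex with Normoxia, the genes past the test were Me1 (0.21), Idh1, the cytosolic NADP isocitrate dehydrogenase (0.16, adjusted p = 0.0463), Sucla2, a subunit of succinate-CoA ligase (0.14, adjusted p = 0.0163), and Fh1 (0.12, adjusted p = 0.0397). Sucla2 had 110, 115 and 120 FPKM in 14-11w-ZH, above all Normoxia mice (100.2, 104 and 108 FPKM), and Fh1 had 51.5, 52.8 and 54.5 FPKM, above 46.9, 48.5 and 50.4 FPKM. None of the 4 passed in edgeR, and Me1 alone passed in DESeq2. Fh1 was lost on leaving out any of 9 single mice, Idh1 any of 10 and Me1 on leaving out 1 mouse. In 14-48h-JFJ the genes past the test beside Pdk1 and Pdp2 were Suclg1, another subunit of succinate-CoA ligase (0.19, adjusted p = 0.0262), and Fh1 (0.14, adjusted p = 0.0355), lost on leaving out any of 6 and 7 single mice. In 14-07w-JFJ the genes past the test were Pdk1, Pcx and Fh1 (0.21, adjusted p = 0.0337), of which none passed in edgeR and Pcx alone in DESeq2. Fh1 was lost there on leaving out any of 9 single mice. With the pigment marker sum as a term Fh1 did not pass in 14-07w-JFJ (0.20, adjusted p = 0.104) or 14-48h-JFJ (0.12, adjusted p = 0.107). Of the 6 mice with the most Fh1, 4 were among the 6 with the highest pigment sum. The mouse with the most Fh1 (61.2 FPKM, in 14-07w-JFJ) had a pigment sum of 42.2 FPKM, the lowest of its group.

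Between the durations at 14% oxygen in Zurich, 14-48h-ZH over 14-06h-ZH, 2 genes were lower and none higher (1.67% of all genes passed, 0.740% higher, 0.932% lower, 0.0641% at 2-fold). They were Pdk1 and Me2. For the empty direction limma gave 6 genes at an unadjusted p under 0.05, edgeR gave 0 and DESeq2 gave 1 at an adjusted p of at most 0.05.

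Between 7% and 14% oxygen for 6 h, 12 genes were higher in 07-06h-ZH and 6 lower (45.5% of all genes passed: 25.8% higher, 19.7% lower, 3.95% at 2-fold). Pdk1, Pdk3, Me2, Slc25a10 and Mpc2 were higher by 0.46 to 0.82, and Pdp2, Got1, Ogdh and Pdp1 lower by -0.48 to -0.32. With DESeq2 the split was 9 higher and 8 lower.

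Air pressure was compared at 48 h, where 17 genes were higher and 6 lower in 14-48h-JFJ than in 14-48h-ZH (39.6% of all genes passed: 30.9% higher, 8.66% lower, 1.32% at 2-fold). The groups also differ in place of dissection, transport, light cycle and code series, so pressure cannot be told apart from any of these. The median of all genes was 0.11 above 0 in this comparison, and it was 0.02 with median-of-ratios scaling, under which 11 of the 38 genes were higher and 11 lower. GC correction also gave 11 and 11, and edgeR 10 and 11. The genes with the largest differences were Suclg2 (0.83), Mpc2 (0.67), Idh2 (0.56), Pdhb (0.42) and Idh3b (0.37), and all 5 passed under each of these. Of them, Mpc2, Pdhb and Idh3b did not pass between 14-48h-JFJ and Normoxia and were lower in 14-48h-ZH than in Normoxia. Pdhb had 110, 119 and 122 FPKM in 14-48h-JFJ (SE 0.04, adjusted p = 2.22e-07) and Slc25a10 had 19.8, 21.4 and 23.6 FPKM (0.32, SE 0.05, adjusted p = 7.33e-05), both without overlap with 14-48h-ZH. Under GC correction the call of Slc25a10 was lost, as were those of Dld, Mdh1, Pdhx, Slc25a11 and Sucla2. Ogdh (-0.21), Pcx (-0.19), Got1 (-0.19) and Cs (-0.15) were lower in 14-48h-JFJ.

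**Figure D5:**
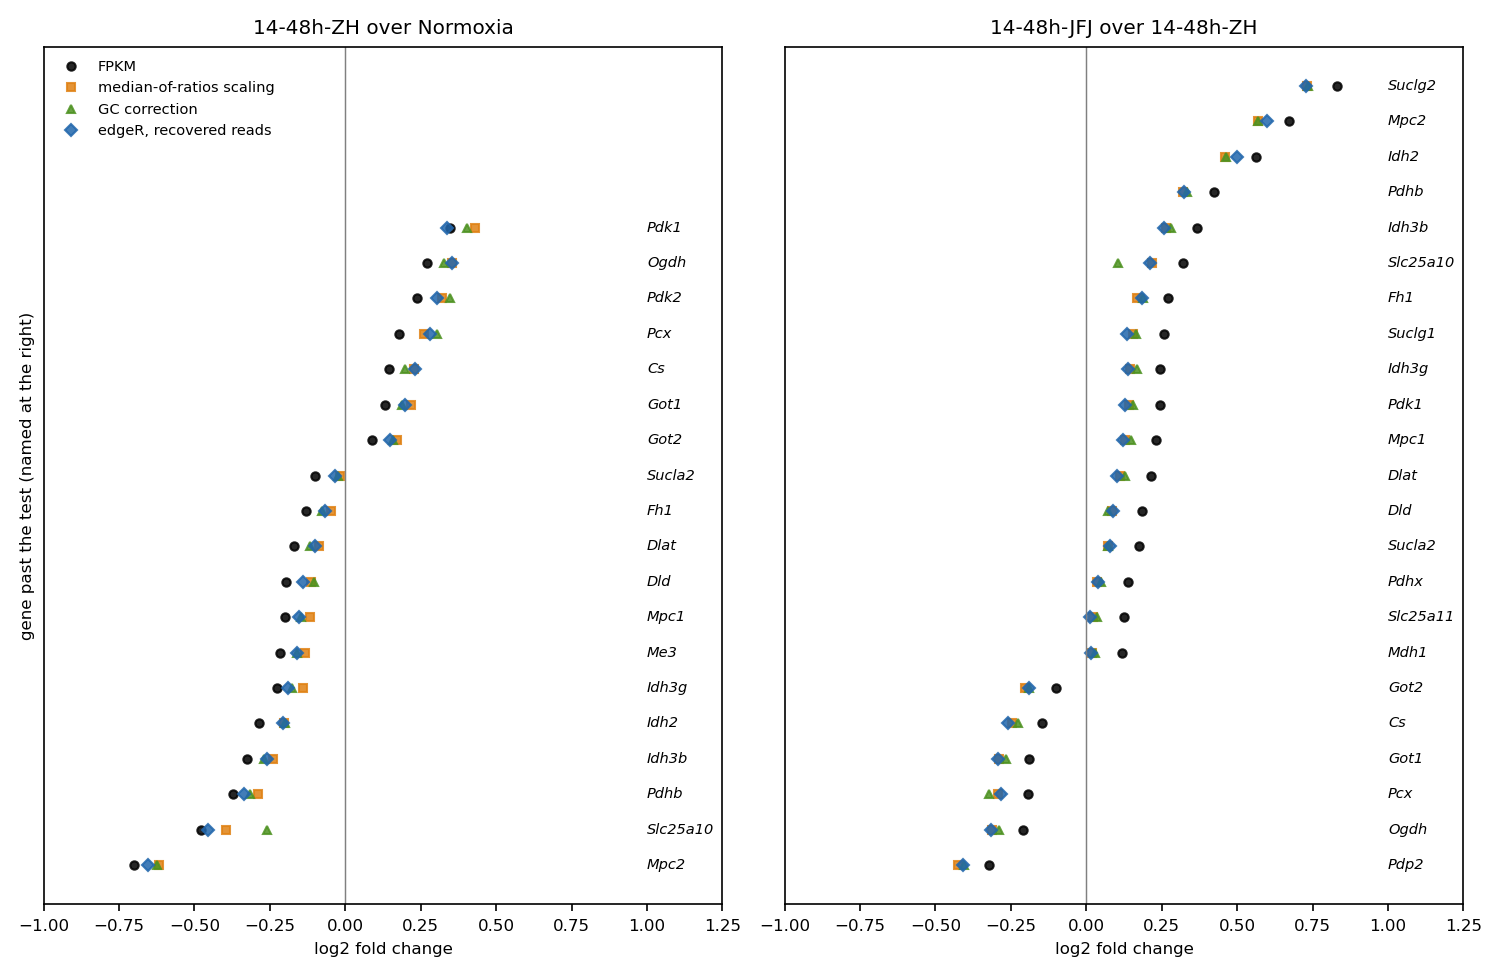
Log2 fold changes of the genes past the test in 14-48h-ZH over Normoxia (left) and 14-48h-JFJ over 14-48h-ZH (right), from FPKM, with median-of-ratios scaling, with GC correction and from edgeR on recovered reads. Most markers shift together by about the shift of all genes (0.11 to 0.02 for the right panel), and Mpc2, Pdhb and Idh3b stay far from 0.

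Idh2, the mitochondrial NADP isocitrate dehydrogenase, had 27.2, 28.9 and 44.9 FPKM in 14-48h-JFJ, against 18.7, 20.4 and 25.4 FPKM in 14-48h-ZH (SE 0.12, adjusted p = 0.00223), with no overlap. It was lower in 14-48h-ZH than in Normoxia (21.2, 26.1 and 31.7 FPKM) by -0.29 (adjusted p = 0.0361), which was lost in 9 of 14 settings and on leaving out any of 8 single mice. Without the 14-48h-JFJ mouse at 44.9 FPKM and with each other mouse left out in turn, the difference between the 48 h groups stayed between 0.45 and 0.62, and with the pigment marker sum as a term it was 0.66 (adjusted p = 0.0415).

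Suclg2, the GTP-specific beta subunit of succinate-CoA ligase, had a coefficient of variation of 16.3% in 14-48h-JFJ and 37.1% in 14-48h-ZH. It had 5.33, 7.35 and 8.13 FPKM in 14-48h-JFJ, against 2.31, 3.72 and 6.83 FPKM in 14-48h-ZH (SE 0.20, adjusted p = 0.00535), with overlapping ranges. Pigment cell markers also differed between these groups. Their sum was 28.6 to 568 FPKM in 14-48h-JFJ, against 14.8 to 38.9 FPKM in 14-48h-ZH. Of all 42 mice, 4 of the 6 with the most Suclg2 were among the 6 with the highest sum. All 4 were 14-07w-JFJ mice and not mice of the 48 h groups. With the pigment marker sum as a term in the fit, the difference of Suclg2 was 0.54 (adjusted p = 0.293), and 12 of the 38 genes were higher and 4 lower, while 18.1% of all genes passed (2458 higher and 635 lower). In 14-07w-JFJ Suclg2 had 4.51, 9.39 and 12.0 FPKM, against 2.44, 4.70 and 9.21 FPKM in Normoxia, which did not pass (0.74, SE 0.32, adjusted p = 0.261). The part of pigment cells in these values was otherwise not tested.

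In the chronic groups 1 gene, Pcx, was higher and none lower in 14-07w-JFJ than in 14-11w-ZH (1.54% of all genes passed: 1.07% higher, 0.470% lower, 0.235% at 2-fold). Beside pressure these groups differ in duration (7 and 11 weeks), age at sampling and mice with Y-linked transcripts (3 of 6 and 6 of 6). They also differ in place of dissection, transport, light cycle and code series. For the empty direction limma gave 3 genes at an unadjusted p under 0.05. At an adjusted p of at most 0.05 edgeR gave 0 and DESeq2 gave 2. Whether the pressure difference itself differed between 48 h and the chronic groups was tested in 1 fit of the 24 mice. It did for 18 of the 38 genes, 13 with a larger value at 48 h and 5 with a smaller one (26.5% of all genes passed: 19.4% larger, 7.05% smaller, 1.06% at 2-fold). With median-of-ratios scaling the split was 9 and 10, and with GC correction 7 and 12. Mpc2 was the largest (0.67, SE 0.07, adjusted p = 3.42e-08), followed by Pdhb (0.46) and Pcx (-0.42), and these 3 passed in all 13 other settings.

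Another 35 genes next to these pathways were listed with them, of which 34 could be tested. They include succinate dehydrogenase, lactate dehydrogenase, lipoylation and glutamate entry. In 07-06h-ZH 7 were higher and 8 lower than in Normoxia, 2 and 9 in 14-06h-ZH, and in 14-48h-ZH 5 and 15, while 1 was higher and 2 lower in each of 14-11w-ZH and 14-48h-JFJ, and 2 and 1 in 14-07w-JFJ. The share past the test was 44.1% in 07-06h-ZH and 32.4% in 14-06h-ZH, near the 42.0% and 34.3% of all genes, and it was 58.8% in 14-48h-ZH, against 36.2% of all genes. This excess depended on the method. In 14-48h-ZH edgeR gave 6 higher and 5 lower (31.1% of all genes passed), and DESeq2 gave 6 and 6 (31.0%). Ldha, which makes lactate from pyruvate, had 1741, 1856 and 2024 FPKM in 07-06h-ZH, against 1031, 1114 and 1152 FPKM in Normoxia (0.77, SE 0.04, adjusted p = 3.82e-10). Gls2, a glutaminase, had 16.3, 18.8 and 21.8 FPKM in 07-06h-ZH, against 9.69, 10.1 and 11.4 FPKM in Normoxia (0.89, SE 0.07, adjusted p = 1.11e-07). Both groups stood apart without overlap.

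Slc25a18, a mitochondrial glutamate carrier, was a low transcript with 1.45, 1.82 and 2.04 FPKM in 07-06h-ZH, against 0.198, 0.432 and 0.718 FPKM in Normoxia (1.90, SE 0.23, adjusted p = 5.57e-06). Lias, which makes the lipoyl group that PDH and oxoglutarate dehydrogenase need, was higher in 07-06h-ZH (0.55, SE 0.07, adjusted p = 8.65e-06). Sdhaf1, an assembly factor of succinate dehydrogenase, was lower in 14-06h-ZH and 14-48h-ZH (-0.49 and -0.45). Between 14-48h-JFJ and 14-48h-ZH 19 were higher and 3 lower (39.6% of all genes passed: 30.9% higher, 8.66% lower). This split depended on the method, and edgeR and DESeq2 each gave 8 higher and 5 lower. Between 07-06h-ZH and 14-06h-ZH 11 were higher and 8 lower (45.5% of all genes passed: 25.8% higher, 19.7% lower). Between 14-48h-ZH and 14-06h-ZH 1 was higher and 0 lower, where 1.67% of all genes passed. In the lower direction limma gave 4 at an unadjusted p under 0.05. At an adjusted p of at most 0.05 edgeR gave 0 and DESeq2 gave 1. Between 14-07w-JFJ and 14-11w-ZH none passed in limma, edgeR or DESeq2, and 4 had an unadjusted p under 0.05 in limma.

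Of the 38 genes, 32 passed the test in at least 1 of the 10 comparisons. The 6 that passed in none were Pdk4, Pdha1, Aco1, Dlst, Mdh2 and Slc25a12, and without the low Pdk4 their log2 differences lay between -0.08 and 0.11 in every comparison.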

How the data were processed

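Processed values of 42 mouse retinas (bulk RNA-seq) were used. The authors aligned the reads with STAR, and the version, counting tool and gene lengths are not given in the sources used here. The deposited table holds FPKM values and, per the file headers, a normalized count per gene, a signal that the authors scaled by library. Its steps gave back whole reads in 36 libraries (100.0% of low values, with a tolerance of 0.1 steps) but not in 6.

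Each comparison used the 12 mice of its 2 groups. log2(FPKM + 0.1) was modelled with limma 3.58.1 under R 4.3.3 (linear fit, robust empirical Bayes with a mean trend), a scale that understates changes of low genes. A gene was dropped if more than 3 mice in 1 group had an FPKM of 0, and Benjamini-Hochberg adjustment ran over every gene left. The study tested counts in edgeR with a log2 limit of 1, and limma was used because the table holds FPKM. Data were simulated for 07-06h-ZH over Normoxia (16962 genes) with normal noise of the spread of the Normoxia mice. Log2 changes of 0.4 and of 1 were given to 100 genes each, drawn from those not low in Normoxia. Of these, 68% at 0.4 and 95% at 1 were recovered, and 5.23% of calls were false. In the data 42.0% of genes passed, far more than were changed in the simulation, so these shares may not carry over. Litters and cages are not given, so p-values measure the spread between these mice.

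The listed genes and lists were chosen with earlier results of these data known. Values by mouse are given for the PDH kinases and phosphatases, for Mpc1 and Mpc2, and for genes that reached 0.4 on the log2 scale and passed the test in some comparison. Other genes with values by mouse were chosen after their values were seen. Alternatives were other pseudocounts (1 and 0.01), keeping every gene, requiring a mean FPKM of 1, scaling by median of ratios, fitting the 7 groups together, blocking on replicate number, plain limma, adding Y-linked expression as a term, using normalized counts, correcting for GC content (known for 99.6% of genes), and edgeR 4.0.16 or DESeq2 1.42.0 on the reads of 36 libraries. Each mouse was also left out in turn. A term for pigment cell markers, and leaving out mice in both pressure comparisons, were chosen after seeing the data. Python 3.11.15 (numpy 2.4.6, scipy 1.17.1, pandas 2.3.3) made the tables.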

Additional observations from a re-analysis of the deposited data

Results flagged for a closer look

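In 6 of 98 sets of 6 mice, 1 mouse lay far from the others by Dixon's criterion, and chance alone gives about 5% of sets. Pdk2 was low in 14-06h-ZH replicate 1 (72.5 FPKM, others 79.7 to 83.7). Pdk3 was high in 14-48h-ZH replicate 5 (26.9 FPKM, others 24.1 to 25.1), and Mpc2 was high in 14-48h-ZH replicate 6 (18.7 FPKM, others 16.5 to 17.3). Idh2 was high in 14-48h-JFJ replicate 6 (44.9 FPKM, others 27.2 to 30.9), Me2 was low in 14-48h-ZH replicate 3 (17.8 FPKM, others 19.2 to 19.9), and Slc25a10 was high in 07-06h-ZH replicate 2 (32.5 FPKM, others 19.4 to 24.2).

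The pressure difference (JFJ minus ZH, log2) differed between 48 h and the chronic groups for 18 genes by limma. The value at 48 h minus that of the chronic groups was 0.67 for Mpc2, 0.46 for Pdhb, 0.37 for Mpc1, 0.34 for Slc25a10, 0.28 for Idh3b, 0.27 for Idh3g, 0.26 for Dld, 0.23 for Sucla2, 0.22 for both Idh1 and Mdh1, 0.21 for Suclg1, 0.18 for Fh1 and 0.17 for Dlat. It was -0.42 for Pcx, -0.35 for Pdp2, -0.29 for Ogdh, -0.27 for Cs and -0.19 for Got1. The adjusted p ran from 3.42e-08 (Mpc2) to 0.029 (Idh1). The 4 groups come from 4 code series, so pressure, place, transport, light cycle and series cannot be told apart. The chronic groups also differ in duration, in age at sampling and in the number of males.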

How the results depend on the processing

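Of 127 calls of single genes, none reversed under the alternatives run for it. The 18 calls of the difference between durations had no leave-one-out and no pigment marker term. Outside leave-one-out 1522 of 1755 checks kept the call and 233 lost it, most often with edgeR (41), DESeq2 (35), median-of-ratios scaling (29) and GC correction (26). With each mouse left out, 1182 of 1308 checks kept it and 126 lost it. The counts of genes past the test in 07-06h-ZH, 14-06h-ZH and 14-48h-ZH over Normoxia, 07-06h-ZH over 14-06h-ZH, 14-48h-JFJ over 14-48h-ZH and the difference between durations stayed within 1.5 times. The small counts did not. For 14-11w-ZH over Normoxia (4) it was 0 without trend and robust options and with edgeR, 1 with DESeq2 and 2 with the pigment marker term. For 14-48h-JFJ over Normoxia (4) it was 1 with the replicate block or the Y-linked term, and 2 without trend and robust options, with edgeR or with DESeq2. For 14-07w-JFJ over Normoxia (3) it was 6 with all 7 groups in 1 fit, 1 with median-of-ratios scaling, the replicate block, DESeq2 or the pigment marker term, and 0 without trend and robust options, with the Y-linked term or with edgeR. For 14-48h-ZH over 14-06h-ZH (2) it was 1 with median-of-ratios scaling, the replicate block, normalized counts, edgeR or without trend and robust options. For 14-07w-JFJ over 14-11w-ZH (1) it was 3 with all 7 groups in 1 fit or with DESeq2, and 0 with the replicate block, the Y-linked term, edgeR, the pigment marker term or without trend and robust options. The cause was not tested. With each mouse left out the counts ran from 16 to 18, 17 to 19 and 16 to 19 for 07-06h-ZH, 14-06h-ZH and 14-48h-ZH over Normoxia, 1 to 5 for 14-11w-ZH, 2 to 7 for 14-48h-JFJ and 0 to 5 for 14-07w-JFJ over Normoxia (these 3 highest without Normoxia replicate 1, and lowest without Normoxia replicates 5, 3 and 2, in this order), 16 to 18 for 07-06h-ZH over 14-06h-ZH, 1 to 3 for 14-48h-ZH over 14-06h-ZH, 23 to 24 for 14-48h-JFJ over 14-48h-ZH and 0 to 1 for 14-07w-JFJ over 14-11w-ZH. Libraries with the same replicate number did not deviate together (median correlation 0.0706, range -0.688 to 0.771, and 14 of 60 correlated best with their own number), so the numbers do not pair mice. Low transcripts such as Pdk4 and Slc25a13 are the least precise.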
